A study of Mus musculus with 3 samples.

Results

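CD8 T cells from mouse tumours were compared between 2 libraries labelled homo and mix. The tumours were grown from MC38, a colon carcinoma line of the mouse, and collected on day 15 after 5 days of treatment. The cells were sorted on CD3 before droplet sequencing of transcript 3′ ends (10x Genomics). The labels name the groups only as PBS, mix and homo, with 1 library each. The series title speaks of interleukin-2 directed to LAG3. What mix and homo contained, the strain and age of the mice and the number of tumours in a library are not given in the sources used here. A cell entered the comparison if its barcode held at least 500 genes, at least 1000 UMIs (counted molecules) and under 10% mitochondrial UMIs. It also needed at least 1 UMI over Cd3d, Cd3e and Cd3g, at least 1 over Cd8a and Cd8b1, and 0 UMIs of Cd4 and of Foxp3. This left 6920 cells of homo and 5839 of mix, 12759 of the 16989 barcodes of these libraries and of 27340 barcodes in the whole series. The PBS library held 7621 such cells, and its values are given beside the others as a reference.

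CD8 T cells kill tumour cells with perforin, which opens membranes, and with granzymes, proteases that enter through the opening. Interleukin-2 signals through the receptor chains Il2ra, Il2rb and Il2rg to STAT5, which switches on survival genes such as Bcl2 and feedback inhibitors such as Cish and the Socs genes. In tumours that are not cleared, CD8 T cells take on inhibitory receptors such as PD-1, TIM-3 and LAG3, while a smaller stem-like pool marked by the transcription factor TCF-1 (gene Tcf7) renews them.

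The gate itself requires CD3 and CD8 UMIs, so their levels are a description. Cd8a was at 1466 CPM (UMIs per 1000000 UMIs of the gated cells) in mix and 1028 in homo, Cd8b1 at 1236 and 1330, and Cd3g at 2115 and 1896. Of T cell genes that the gate did not use, Lck was at 624 CPM in mix and 624 in homo, and Thy1 at 1503 and 1223. The gate took 72.8% of barcodes with CD3 UMIs in mix (exact 95% interval 71.8 to 73.8), 89.6% in homo (88.9 to 90.3) and 76.8% in PBS (75.9 to 77.6). All intervals given here cover counting error only, and say nothing of how animals or library preparations vary. Just inside the gate, 145 cells of mix and 157 of homo held exactly 1 CD8 UMI. Just outside it, 501 and 171 barcodes failed by having 0 CD8 UMIs alone. The libraries differed in depth and in mitochondrial RNA. The median gated cell held 5704 UMIs and 2081 genes in mix, 7092 and 2346 in homo, and 5216 and 1966 in PBS. Barcodes over the mitochondrial limit were 0.307% of mix, 4.07% of homo and 0.251% of PBS. Homo and mix shared 100 barcode sequences, 47 of them in the gate of each library.

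Markers of other cell types stood at low levels, and some of them differed between homo and mix. The 10 dendritic cell markers summed to 63.6 CPM in mix, 9.49 in homo and 78.9 in PBS. Most of this was Cd74, and H2-Aa was at 9.67 CPM in mix and 0.247 in homo. The 10 macrophage markers summed to 13.9 CPM in mix and 20.4 in homo, mostly Cd68, with C1qa at 0.716 and 0.353. The 8 NK cell markers summed to 228 CPM in mix and 1290 in homo, but without Gzma, which is on that list, the remaining 7 summed to 39.4 and 45.5. The defining NK receptor gene Ncr1 was at 0.477 and 0.159 CPM. The 8 gamma delta T cell markers summed to 120 CPM in mix and 201 in homo, mostly the variable segment Trgv2, while the constant segment Trdc was at 0.795 and 0.335. Their part in the ratios below was not tested, except where a value without such cells is given.

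UMIs were summed over gated cells and scaled to CPM, and 7870 genes with at least 10 CPM in homo or in mix were compared. At this minimum, Psrc1 (10.0 CPM in homo) lay just inside and Ulk1 (9.99 in mix) just outside. At 2-fold or more, 64 of the 7870 genes stood higher in homo (0.813%) and 109 stood lower (1.39%). At 1.5-fold, 249 were higher (3.16%) and 340 lower (4.32%), so 92.5% of genes lay within 1.5-fold. The median log2 ratio of homo over mix was -0.05. The genes described below were chosen by these same CPM ratios, which are therefore a description, and with 1 library on each side they have no replicate check and no test. Of the genes beyond 2-fold, 47 higher and 96 lower were named protein-coding or noncoding genes. The others were receptor genes, a mitochondrial gene and unnamed gene models. Of the 47, 31 were under 50 CPM in both libraries, as were 56 of the 96. The PBS library, which took no part in the choice of these genes, lay nearer to mix than to homo on the log2 scale for 42 of the 47 higher and 87 of the 96 lower genes. It lay within 1.5-fold of mix for 42 and 81 of them, so for most of these genes homo was the library that stood apart. The position of PBS was not counted over all 7870 genes. These counts therefore have no background share and describe these genes only.

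**Figure D1:**
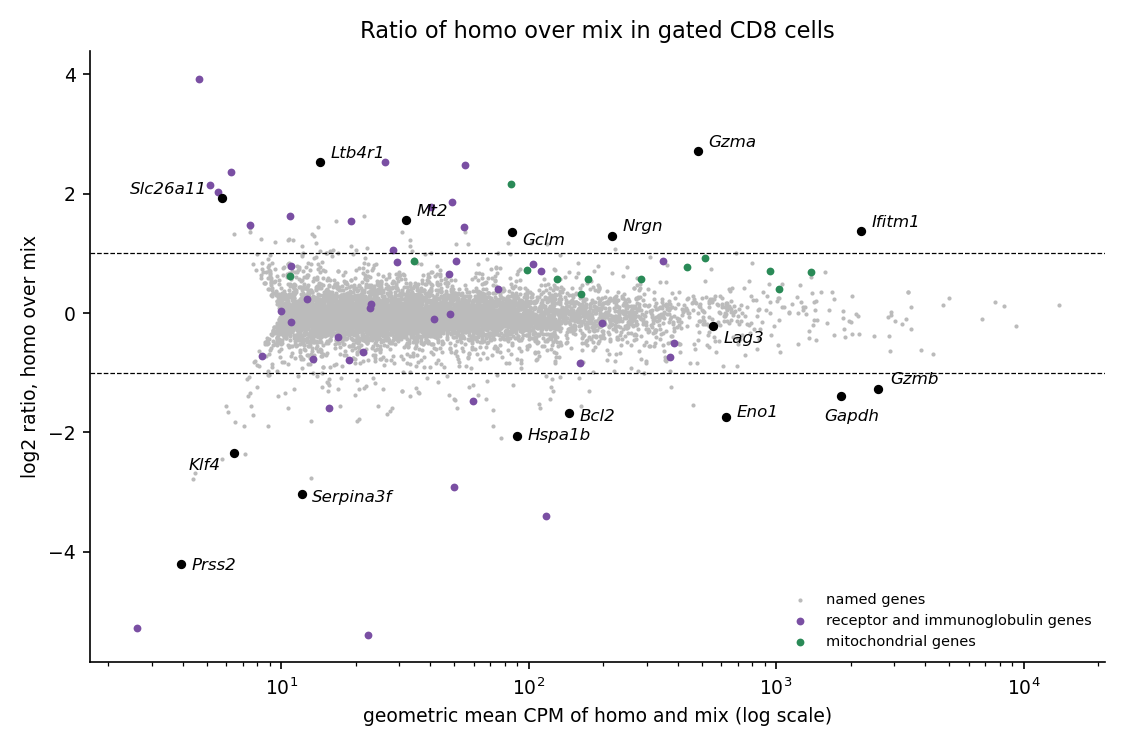
Log2 ratio of homo over mix (vertical axis) against the geometric mean CPM of both libraries (horizontal axis, log scale) for 7870 genes in gated CD8 cells, 1 point per gene, with dashed lines at 2-fold. Most points lie between the lines, Gzma stands at 2.72, Prss2 at -4.20, and the T cell receptor genes spread widely in both directions.

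Granzyme A was the effector gene with the highest ratio. Gzma, a granule protease with trypsin-like cleavage, was at 189 CPM in mix, 1244 in homo and 329 in PBS, a log2 ratio of homo over mix of 2.72 (95% counting interval 2.69 to 2.76). More cells of homo held it, and those cells held more of it. With every cell thinned to 2000 UMIs, to set depth equal, Gzma was found in 6.89% of cells in mix (6.24 to 7.59), 19.8% in homo (18.9 to 20.8) and 11.7% in PBS (10.98 to 12.5). Thinning left out 324 cells of mix and 405 of homo, and the unthinned shares were 9.88% in mix and 25.9% in homo. Cells with Gzma held on average 5.60 Gzma UMIs in mix and 10.7 in homo after thinning. Cells with 16 or more were 0.671% of mix and 4.64% of homo. The top 1% of cells held 61.8% of all Gzma UMIs in mix and 28.7% in homo, so the signal was more concentrated in mix. As a background, barcodes with at least 10 UMIs over 9 myeloid genes and without UMIs of the CD3 or CD8 genes were used, which should lack Gzma. That choice also leaves out myeloid barcodes with stray CD3 or CD8 RNA. The background shares given here, for Gzma and for other T cell genes, may therefore be too low. Of the 38 that could be thinned (19 of PBS, 17 of mix and 2 of homo, with medians of 4047.5, 5121.5 and 7430.5 UMIs before thinning), 0 held a Gzma UMI, which allows a share of up to 9.25%. The 19.8% of homo lies above that bound. The 6.89% of mix lies below it, so these barcodes cannot set the mix share apart from background.

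The other granule genes differed in both directions. Gzmb, which encodes the caspase-activating granzyme B, was at 4001 CPM in mix, 1663 in homo and 3657 in PBS, a log2 ratio of -1.27 (-1.28 to -1.25). Perforin, Prf1, was at 575 CPM in mix, 244 in homo and 620 in PBS (-1.24). Gzmc was at 596, 1070 and 728 CPM (0.85), and Gzmk, found mostly in less differentiated cells, at 99.3, 163 and 167 (0.72). So Gzmk in homo stood near PBS, while its Gzma, Gzmb and Prf1 stood apart from both mix and PBS. By the 1.5-fold limit used for all gene lists here, 3 of the 14 granule genes compared were higher, 4 lower and 7 within it, and the list's median was -0.09. Gzmc and its neighbours Gzmd to Gzmg are near-identical copies between which reads may be split. Gzmf, the highest of them, was at 2892 CPM in mix and 2771 in homo.

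Serpins, which block proteases and can shield a T cell from its own granzymes, lay on both sides of the limit used below. Serpina3f was at 34.2 CPM in mix, 4.18 in homo and 41.3 in PBS (-3.03, -3.24 to -2.83). Serpinb9b, of the family that inhibits granzyme B, was at 159, 37.2 and 279.5 CPM (-2.10), and Serpinb9 itself at 277 in mix and 112 in homo (-1.30). Serpinb6a went the other way, at 118 CPM in mix and 211 in homo (0.84). On this list 2 of 11 genes were higher and 5 lower by the 1.5-fold limit, and the median was -0.28. Members of these serpin families are close copies, so reads may be split between them.

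**Figure D2:**
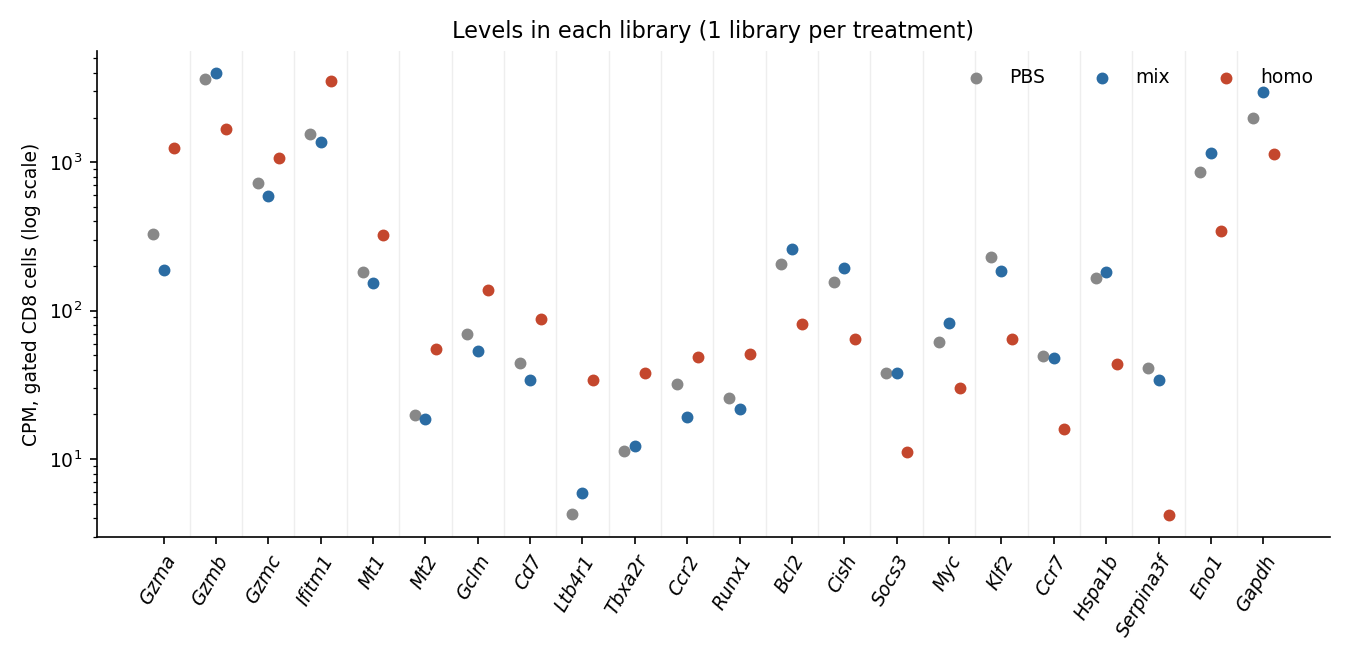
CPM in gated CD8 cells (vertical axis, log scale) of 22 genes in the PBS, mix and homo libraries, 1 point per library and no error bars because each treatment has 1 library. For most of these genes the PBS and mix points lie close together and the homo point stands apart, as for Ltb4r1, Socs3 and Serpina3f.

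Targets of STAT5 and the SOCS feedback genes were lower in homo, while the receptor chains for interleukin-2 differed little. Il2ra was at 72.6 CPM in mix and 61.7 in homo (log2 ratio -0.23), Il2rb at 947 and 947 (0.00), and Il2rg at 829 and 645 (-0.36). Il7r, the interleukin-7 receptor chain, was at 224 CPM in mix, 336 in homo and 279 in PBS (0.59). By the 1.5-fold limit, 10 of the 13 STAT5 target and SOCS genes compared were lower and 0 higher, and their median was -0.88. Bcl2, which protects mitochondria in apoptosis, was at 260 CPM in mix, 81.6 in homo and 207 in PBS (-1.67, -1.72 to -1.62). Cish, an inhibitor of cytokine and receptor signalling, was at 194, 64.0 and 155 CPM (-1.60). Socs3, which binds cytokine receptors and blocks their kinases, was at 37.9, 11.1 and 37.8 CPM (-1.77). Socs1, which inhibits the same kinases, was at 183 and 84.7 CPM (-1.11), and Myc, a driver of growth, at 82.1, 30.3 and 61.9 (-1.44). The 3 members within the limit were Socs2, Mcl1 and Ccnd3, at -0.53, -0.49 and -0.37. In cells thinned to 2000 UMIs, Bcl2 was found in 37.4% of cells in mix and 15.4% in homo, and in 0 of 38 myeloid barcodes, and Cish in 30.9% and 12.02%. Socs3 was found in 7.67% of cells in mix and 2.19% in homo, below the 28.9% of myeloid barcodes. Its shares are therefore not read as expression, and its CPM carries the same limit. The promoter windows of Cish and Socs3 are shown because both genes are feedback targets of STAT factors and lay among the lowest. They run from 160 bases before to 30 after the RefSeq start (GRCm38.p6, chr9:107296499-107296688 on the plus strand and chr11:117969337-117969526 on the minus strand). Capitals mark matches to the STAT motif TTCNNNGAA, searched on both strands.
Cish: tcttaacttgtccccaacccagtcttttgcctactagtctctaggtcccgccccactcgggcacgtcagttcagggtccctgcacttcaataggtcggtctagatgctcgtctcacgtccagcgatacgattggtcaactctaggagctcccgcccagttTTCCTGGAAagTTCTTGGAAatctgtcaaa
Socs3: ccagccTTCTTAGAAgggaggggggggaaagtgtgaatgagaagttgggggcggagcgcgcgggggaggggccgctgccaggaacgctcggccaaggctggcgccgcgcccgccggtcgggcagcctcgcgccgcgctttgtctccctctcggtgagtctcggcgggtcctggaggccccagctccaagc
Of the 8 STAT5 list genes that were lower in homo and had a window in the RefSeq table, these 2 held a match within 250 bases before to 50 after the start. The motif is present in 8.31% of the windows of 6304 compared genes. A match is a description of the letters and not evidence of binding.

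Genes of MYC, of its partners and of the D cyclins were also unevenly placed. Mxd1 was at 110 CPM in mix and 40.8 in homo (-1.44), and Mxd4 at 34.1 and 75.8 (1.15), although both encode proteins that oppose MYC. Cdk6, the kinase partner of D cyclins, was at 198 CPM in mix and 79.9 in homo (-1.31). In this network 5 of 17 genes were lower by 1.5-fold, 1 was higher and 11 were within that limit. In the BCL2 family, 2 of 12 were lower, Bcl2 and Bcl2l1 (-0.88), and 0 were higher, while the BH3-only gene Bbc3 was at 0.54.

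Immediate early genes, which are switched on within minutes of receptor signals or of stress, were lower in homo in part. Among the 31 compared, 13 were lower by 1.5-fold and 0 higher, and the median was -0.51. Atf3, a stress-induced transcription factor, was at 24.5 CPM in mix, 7.01 in homo and 30.6 in PBS (-1.81). Cebpb was at 126, 40.8 and 146 CPM (-1.62), and Dusp1, a phosphatase that switches off MAP kinases, at 280 CPM in mix and 95 in homo (-1.56). Fos was at 189 and 80.0 CPM (-1.24), but Jun was at 317 and 233 (-0.44), so members of one transcription factor complex differed in size of ratio. Nfkbid (0.19), Rel (0.05) and Btg2 (0.01) were the 3 members above 0. Cebpb and Dusp1 are also expressed by myeloid cells, where they were found in 28.9% and 36.8% of the 38 thinned barcodes, against 7.95% and 13.5% of gated cells of homo and 20.02% and 31.2% of mix. Shares below those of the myeloid barcodes are not read as expression, although true expression in myeloid cells makes these barcodes a poor background for both genes. The same rule applies to other genes described here whose shares in mix and in homo both lay below that of the myeloid barcodes. Klf2, for example, was found in 42.1% of those barcodes, 21.98% of mix cells and 9.69% of homo cells. The others were Socs3, Ccr7, Hspa1a, Lilrb4a, Tnfrsf4, Cd7, Cd200r1, Anxa1, Selenop and Klf4. Genes below it in a single library are not listed. For all these genes the CPM is the value compared, but it is summed from the same UMIs and carries the same limit.

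Heat shock chaperones, which refold damaged proteins, lay lower in homo in 17 of 18 compared genes, 7 of them by at least 1.5-fold, with a median of -0.51. Of all 7870 genes compared, 4618 lay below 0. Hspa1b was at 183 CPM in mix, 44.0 in homo and 165 in PBS (-2.06, -2.12 to -1.99). Hspa1a, a near-identical copy whose reads cannot be separated with certainty, was at 138, 37.0 and 121 CPM (-1.89). Dnajb1, a co-chaperone of these, was at 194 and 91.99 CPM (-1.08). The constitutive Hspa8 was at 2856 and 2177 CPM (-0.39), Hsp90ab1 at 2065 and 1716 (-0.27), and Hspa4l at 26.6 and 29.1 (0.13). The inducible pair Hspa1a and Hspa1b thus stood farthest from 0. The promoter window of Hspa1b (chr17:34959209-34959398, minus strand, GRCm38.p6) is shown because it is the lowest of the list. Capitals mark matches to the heat shock motif in its forms GAANNTTC and TTCNNGAA, which can overlap.
Hspa1b: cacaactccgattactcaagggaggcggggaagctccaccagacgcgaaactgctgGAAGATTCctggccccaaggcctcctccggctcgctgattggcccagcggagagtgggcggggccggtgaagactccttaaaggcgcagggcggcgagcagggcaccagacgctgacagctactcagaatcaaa
A match stood in 8 of the 15 heat shock genes with a RefSeq window, 3 of the 6 that were lower by 1.5-fold, and 14% of the windows of all compared genes.

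Many glycolysis genes were lower in homo. In the list of 25 glycolysis and hypoxia genes, 12 were lower by 1.5-fold and 0 higher, with the median at -0.58. Of the 25, 24 lay below 0, beside 4618 of all 7870 genes. Eno1, the enolase, was at 1151 CPM in mix, 345 in homo and 862 in PBS (-1.74, -1.76 to -1.71). Gapdh was at 2957, 1132 and 1987 CPM (-1.39), and Ankrd37, a hypoxia-induced gene, at 24.1 and 9.76 (-1.30). For Eno1 and Gapdh, mix stood above PBS and homo below it. The lactate dehydrogenase Ldha was at 1305 and 832 CPM (-0.65). The glucose transporter Slc2a1 was at 56.4 and 32.8 CPM (-0.78), while Slc2a3 was at 71.7 and 69.9 (-0.04). Eno1b, a near copy of Eno1, was at 95.6 and 61.0 CPM (-0.65), so the sum of both copies was also lower in homo. In thinned cells Eno1 was found in 76.7% of mix and 42.8% of homo. By contrast, of 30 nuclear-encoded respiratory chain genes 29 lay within 1.5-fold, with a median of -0.01, and Cycs, cytochrome c, was at 268 and 167 CPM (-0.69). All 28 proteasome subunits compared lay within 1.5-fold, with a median of -0.14. The 13 mitochondrially encoded genes had a median of 0.68 and 8 of them were at least 1.5-fold higher in homo, with mt-Co1 at 1096 and 1758 CPM, beside the higher mitochondrial share of that library. Among amino acid transporters and ATF4 targets, Slc7a5 was at 36.3 and 21.1 CPM (-0.78). It was the only 1 of the 14 genes of that list lower by 1.5-fold, while 0 were higher and 13 lay between.

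The medians of interferon-stimulated genes and of Ifitm genes lay on opposite sides of 0. Type I interferon-stimulated genes were lower by 1.5-fold in 16 of 35 and higher in 0, and their median was -0.57. Oasl2, an antiviral protein of the oligoadenylate synthetase family, was at 48.7 CPM in mix, 15.6 in homo and 46.5 in PBS (-1.65). Oas2 was at 13.7, 4.22 and 10.1 CPM (-1.70), and Isg15, a ubiquitin-like modifier, at 828 and 449 (-0.89). Ly6e was at 1418 and 1463 CPM (0.05), and Irf9, a subunit of the interferon-activated complex, at 89.0 and 75.8 (-0.23). Genes of interferon-gamma defence and MHC class I differed less. Of 28, 6 were lower and 0 higher, with a median of -0.35. Iigp1 was at 22.8 and 10.6 CPM (-1.11), and H2-D1, an MHC class I chain, at 2899 and 2924 (0.01). The chemokine Cxcl10, which interferon-gamma induces, was at 41.9 CPM in mix, 14.3 in homo and 31.9 in PBS (-1.55), beside Ifng itself at 372, 218 and 370 (-0.77).

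The Ifitm genes encode membrane proteins that interferons can induce and that hinder virus entry. Ifitm1 was at 1369 CPM in mix, 3547 in homo and 1549 in PBS (1.37, 1.36 to 1.39), and Ifitm2 at 485, 976 and 494 (1.01). Ifitm3 was at 646, 934 and 549 CPM (0.53) and Ifitm10 at 31.5, 35.9 and 28.3 (0.19), so all 4 lay above 0. Ifitm1 differed by the number of cells that held it rather than by the amount per cell. After thinning it was found in 30.7% of cells in mix, 68.2% in homo and 32.5% in PBS, with means of 8.44, 9.82 and 10.5 UMIs in those cells. It was found in 10.5% of the 38 myeloid barcodes. The promoter window of Isg15 (chr4:156200789-156200978, minus strand, GRCm38.p6) is shown as an example of the interferon-stimulated genes. Capitals mark overlapping matches to an ISRE-type motif, GAAA followed by any 2 bases and GAAA again, searched on both strands.
Isg15: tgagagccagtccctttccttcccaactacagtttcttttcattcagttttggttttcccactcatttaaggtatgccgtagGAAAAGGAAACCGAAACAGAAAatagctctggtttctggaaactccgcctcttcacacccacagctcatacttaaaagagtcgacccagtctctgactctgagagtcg
This motif stood in 18 of the 26 listed genes with a RefSeq window, in 8 of the 12 that were lower by 1.5-fold, and in 4.27% of the windows of all compared genes.

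Genes of mitosis were higher in homo and genes of DNA replication were not. Among 28 G2/M and mitosis genes, 19 were higher by 1.5-fold and 0 lower, and their median was 0.73. Ube2c, which feeds the mitotic ubiquitin ligase, was at 67.7 CPM in mix, 154 in homo and 74.0 in PBS (1.18). Ccnb2, a mitotic cyclin, was at 38.0, 84.6 and 37.3 CPM (1.16), and Mki67 at 58.8, 98.8 and 63.8 (0.75). Cdk1 was at 27.4 and 31.7 CPM (0.21) and Tubb4b at 175 and 153 (-0.19). Of 27 replication and G1/S genes, 0 were higher, 2 were lower (Mcm2 at -0.73 and Mcm4 at -0.67, subunits of the replicative helicase) and 25 were within 1.5-fold, and their median was -0.20. Tk1 was at 44.6 and 56.4 CPM (0.34). Of 9 histone genes compared, 4 were higher, with Hist1h2ae at 70.9 and 116 CPM (0.71). Cells called cycling, by at least 2 UMIs over 8 genes after thinning, were 10.5% of mix (9.72 to 11.4), 17.2% of homo (16.3 to 18.1) and 10.3% of PBS (9.65 to 11.1). In the myeloid barcodes 0 of 38 met this rule, which allows up to 9.25%. Within cycling cells the 23 mitosis genes not used for the call had a median of 0.11 and 0 of them were beyond 1.5-fold. In the cells not called cycling the same 23 had a median of 0.78, with 12 higher and 1 lower. The 24 replication genes left had a median of -0.42 in cycling cells, 5 of them lower, and of -0.44 in the others, 7 of them lower. The share of all genes beyond 1.5-fold is not given within these subsets, so the counts in them are a description.

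Metallothioneins, which bind zinc and copper, were higher in homo while zinc transporters were not. Mt2 was at 18.6 CPM in mix, 54.8 in homo and 19.8 in PBS (1.56), Mt1 at 154, 323 and 182 (1.07), and Mt3 at 8.35, 20.9 and 13.5 (1.32). The zinc importer Slc39a10 was at 17.5 and 9.67 CPM (-0.85), and 5 of 9 genes of the list lay between the limits. Gclm, a subunit of the enzyme that starts glutathione synthesis, was at 53.4, 137 and 69.6 CPM (1.36), but it was the only 1 of 17 glutathione and NRF2 genes beyond 1.5-fold, and its partner subunit Gclc was at 18.3 and 16.1 (-0.18). Mt2 has 3 metal response motifs in its promoter window (chr8:94172458-94172647, plus strand, GRCm38.p6), which is shown because it is the highest of the list. Capitals mark TGCACNC or TGCGCNC on either strand.
Mt2: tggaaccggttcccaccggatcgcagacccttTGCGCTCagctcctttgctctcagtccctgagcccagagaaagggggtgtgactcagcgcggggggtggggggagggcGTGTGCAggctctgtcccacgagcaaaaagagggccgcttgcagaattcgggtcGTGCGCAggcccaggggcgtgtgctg
All 3 metallothioneins held a match and the windows of 40.7% of compared genes did, so this short motif is common.

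**Figure D3:**
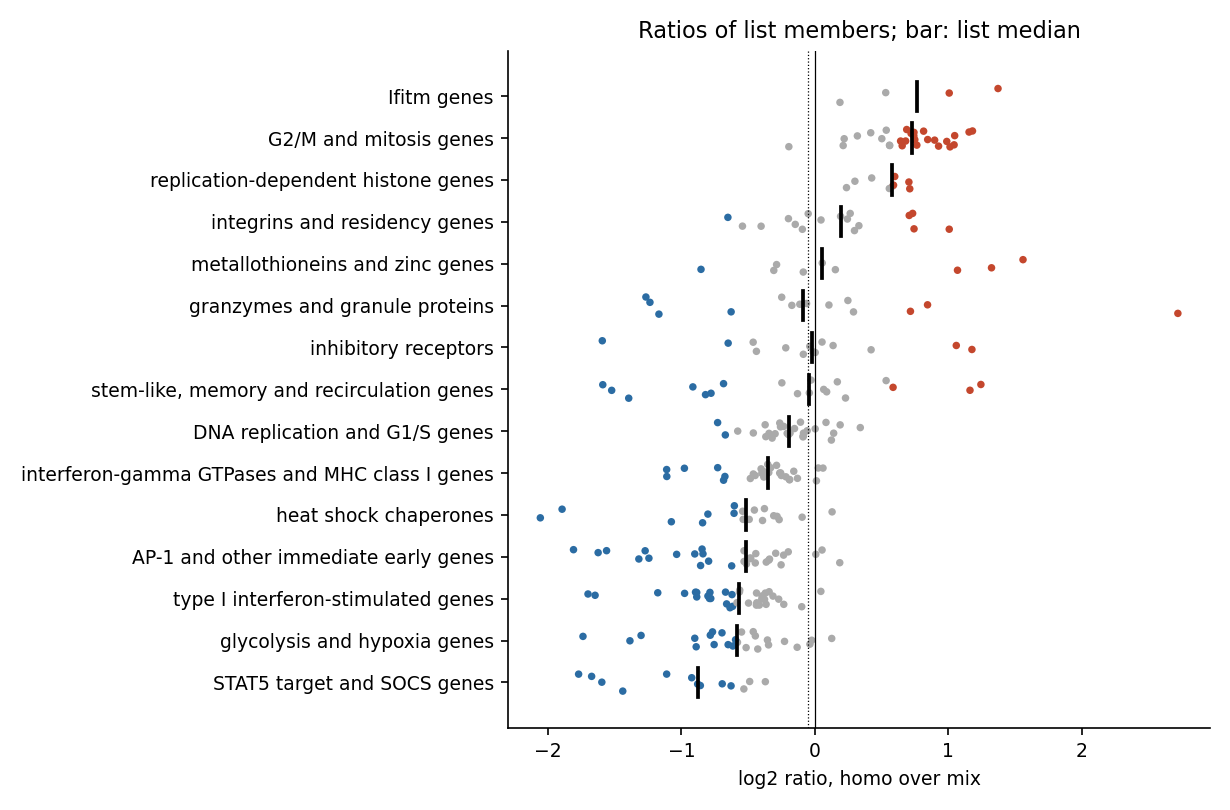
Log2 ratio of homo over mix (horizontal axis) for the members of 15 gene lists, 1 point per gene, coloured where at least 1.5-fold higher (red) or lower (blue), with a black bar at each list's median and a dotted line at the median of all genes, -0.05. The medians run from 0.77 for the Ifitm genes and 0.73 for mitosis genes to -0.88 for STAT5 target and SOCS genes.

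Inhibitory receptors showed no shared direction. Pdcd1, which encodes PD-1, was at 574 CPM in mix, 768 in homo and 571 in PBS (0.42). Lag3 was at 602, 518 and 611 CPM (-0.22), Havcr2, which encodes TIM-3, at 179, 169 and 196 (-0.09), and Tigit at 311 and 311 (0.00). Cd160, which binds HVEM, was at 54.9, 124 and 69.3 CPM (1.18), Cd200r1 at 11.2, 23.3 and 12.3 (1.06), and Lilrb4a at 89.2, 29.6 and 91.8 (-1.59). Of 14 compared, 2 were higher, 2 lower and 10 between. Entpd1, the ectonucleotidase CD39, was the other lower member, at 132 and 84.3 CPM (-0.65). Transcription factors of exhausted and effector cells were mostly within 1.5-fold, 17 of 20, with Tox at 182 and 203 CPM (0.15), Zfp683 at 31.7 and 12.2 (-1.37) and Irf8 at 310 and 158 (-0.97).

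Costimulatory receptors differed in both directions. Tnfrsf9, which encodes 4-1BB and is induced by antigen receptor signals, was at 788 CPM in mix, 271 in homo and 783 in PBS (-1.54). Tnfrsf4, which encodes OX40, was at 131, 56.6 and 156 CPM (-1.21), and Tnfrsf18, which encodes GITR, at 357 and 189 (-0.92). Cd7 was at 34.4, 87.9 and 44.5 CPM (1.36) and Crtam at 19.3, 40.1 and 19.96 (1.05). Of 14 in all, 2 were higher, 3 lower and 9 between. The receptor components of interleukin-18, Il18r1 and Il18rap, were at 96.1 and 188 CPM (0.97) and at 76.0 and 112 (0.56).

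Stem-like, memory and recirculation genes showed no shared direction. Ccr7, the lymph node homing receptor, was at 48.3 CPM in mix, 16.1 in homo and 49.4 in PBS (-1.59). Klf2, the transcription factor that drives egress receptors, was at 186, 64.7 and 228 CPM (-1.52). Tcf7 was at 42.7, 44.7 and 37.2 CPM (0.07, -0.02 to 0.16). Bcl6 was at 5.30, 12.6 and 5.13 CPM (1.24), and Emb, the adhesion protein embigin, at 79.1, 177 and 91.3 (1.16). Of 19 stem-like, memory and recirculation genes, 3 were higher, 7 lower and 9 between, with a median of -0.04.

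Adhesion and homing genes of tissue were higher in part. Ccr2, a chemokine receptor of inflamed tissue, was at 19.2 CPM in mix, 49.1 in homo and 32.1 in PBS (1.35), and Cxcr3 at 46.8, 82.8 and 55.0 (0.82). Of 7 chemokine receptors compared these 2 were higher and 0 were lower. The collagen-binding integrin Itga1 was at 71.7, 119 and 60.1 CPM (0.73), Itgb7 at 54.2, 90.8 and 81.8 (0.74) and Itgb1 at 143 and 234 (0.71). Of 17 integrin and residency genes, 4 were higher and 1 was lower, Rgs16 at 514 and 327 CPM (-0.65). Anxa1, an annexin that dampens inflammation, was at 28.4, 57.4 and 47.9 CPM (1.01), and S100a10 at 1244 and 2001 (0.69).

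Several of the highest genes were scarce transcripts of lipid mediator receptors and other surface or secreted proteins. Ltb4r1, the high-affinity receptor of the attractant leukotriene B4, was at 5.94 CPM in mix, 34.1 in homo and 4.29 in PBS (2.52, 2.32 to 2.73), from 224 and 1935 UMIs in mix and homo. Tbxa2r, the thromboxane receptor, was at 12.2, 37.9 and 11.4 CPM (1.63). Slc26a11, an anion transporter, was at 2.89, 10.98 and 3.43 CPM (1.93), and Qrfp, a neuropeptide gene, at 9.65, 28.2 and 11.3 (1.55). The selenium carrier Selenop was at 8.51, 23.0 and 7.54 CPM (1.44) and Nrgn, a calmodulin-binding protein, at 138, 341 and 186 (1.30). After thinning, Ltb4r1 was found in 0.943% of cells in mix and 5.20% in homo, against 2.63% of the 38 myeloid barcodes. That is 1 barcode, and its interval of 0.07 to 13.8% holds both shares. It therefore cannot set either library apart from background, and neither share is read as expression. Tbxa2r was found in 2.67% and 7.49%, below the 13.2% of myeloid barcodes, so its share is not read as expression.

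Some of the lowest genes came from few cells. The top 1% of cells held 90.2% of Penk UMIs and 95.8% of Areg UMIs in mix, genes of an opioid peptide and of a growth factor at 15.9 and 13.4 CPM there and 3.09 and 3.60 in homo. Cd74, the chaperone of MHC class II, was at 34.2 CPM in mix, 5.01 in homo and 41.4 in PBS (-2.77). Its top 1% of cells held 82.2% of its UMIs in mix. It was found in 92.1% of myeloid barcodes, but it is 1 of the 9 genes that select them. That share is therefore largely fixed by the selection and says nothing of where the Cd74 UMIs of gated cells came from. Klf4, a transcription factor, was at 14.3, 2.81 and 19.2 CPM (-2.35) and was more widely spread, with 28.3% of its UMIs in mix in the top 1% of cells. With all cells that held any UMI of 12 macrophage, dendritic, neutrophil or B cell genes left out, the Penk ratio was -2.13, the Areg ratio -1.87 and the Gzma ratio 2.72.

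Other lists differed little. Of 18 chemokine and effector cytokine genes, 3 were lower (Cxcl10, Ifng and Areg) and 0 higher, with Ccl5 at 2294 CPM in mix and 1807 in homo (-0.34) and Tnf at 63.0 and 69.0 (0.13). Of 20 genes of the CD3 and CD8 complexes and their adaptors, 1 was lower, Cd6 at 137 and 87.1 CPM (-0.65). Of 9 killer lectin receptors, 1 was higher, Klra3 at 9.52 and 15.6 CPM (0.71), which was at -0.26 when cells with unequal V genes were left out, as described below. Klrd1, which pairs with several of them, was at 1350.0 and 1554 (0.20). Of 16 cholesterol and fatty acid synthesis genes, 3 were lower and 0 higher, with Insig1 at 12.7 and 7.62 CPM (-0.74). All 8 Gimap genes, GTPases of lymphocyte survival, lay within 1.5-fold, as did all 85 ribosomal protein genes, which summed to 24.5% of UMIs in mix and 27.1% in homo.

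The V segments of the T cell receptor, which identify families of T cell clones, differed widely between homo and mix. Among 35 alpha and beta V genes, 12 stood higher in homo by 2-fold or more and 6 stood lower. Trbv20 was at 382 CPM in mix, 36.1 in homo and 71.5 in PBS (-3.40), and 22.8% of mix cells held at least 2 of its UMIs, against 2.69% of homo and 4.79% of PBS. Trav8d-2 was held by 7.30% of mix cells and 0.361% of homo cells. Trbv31, Trbv26 and Trbv1 were held by 12.4%, 9.71% and 9.26% of homo cells and by 2.33%, 2.43% and 1.75% of mix cells. Trbv16 was frequent in both, at 12.04% of mix and 23.4% of homo. The constant segments Trac, Trbc1 and Trbc2 were at 459, 215 and 481 CPM in mix and at 324, 121 and 289 in homo.

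Some of the lowest genes had a larger share of their UMIs in cells of 1 V segment than those cells held of all UMIs. In mix, 95.3% of the UMIs of Prss2, a trypsinogen gene that lies in the T cell receptor beta locus, were in the 703 cells with Trbv16, which held 14.5% of all UMIs. There it was at 105 CPM, against 0.868 in the other cells of mix. Prss2 over all gated cells was at 15.9 CPM in mix, 0.865 in homo and 2.06 in PBS (-4.20, -4.65 to -3.78). Of the UMIs of Rln3, which encodes a relaxin peptide, 66.7% were in the 1332 mix cells with Trbv20, which held 24.6% of all UMIs. Rln3 was at 10.97 CPM in mix and 1.71 in homo (-2.68). Ank3, a membrane scaffold gene at 13.2 and 2.42 CPM (-2.45), had 46.6% of its UMIs in the same cells. Serpina3f and Eno1, in contrast, had 18.8% and 26.1% of their UMIs there, near the share of all UMIs. Leaving out every cell with at least 2 UMIs of any of the 18 V genes beyond 2-fold kept 3374 cells of homo and 2834 of mix. In these cells the Rln3 ratio was -1.39 and the Ank3 ratio -1.50, Gzma was at 2.67 and Serpina3f at -3.15. That alternative was added after the data were seen.

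**Figure D4:**
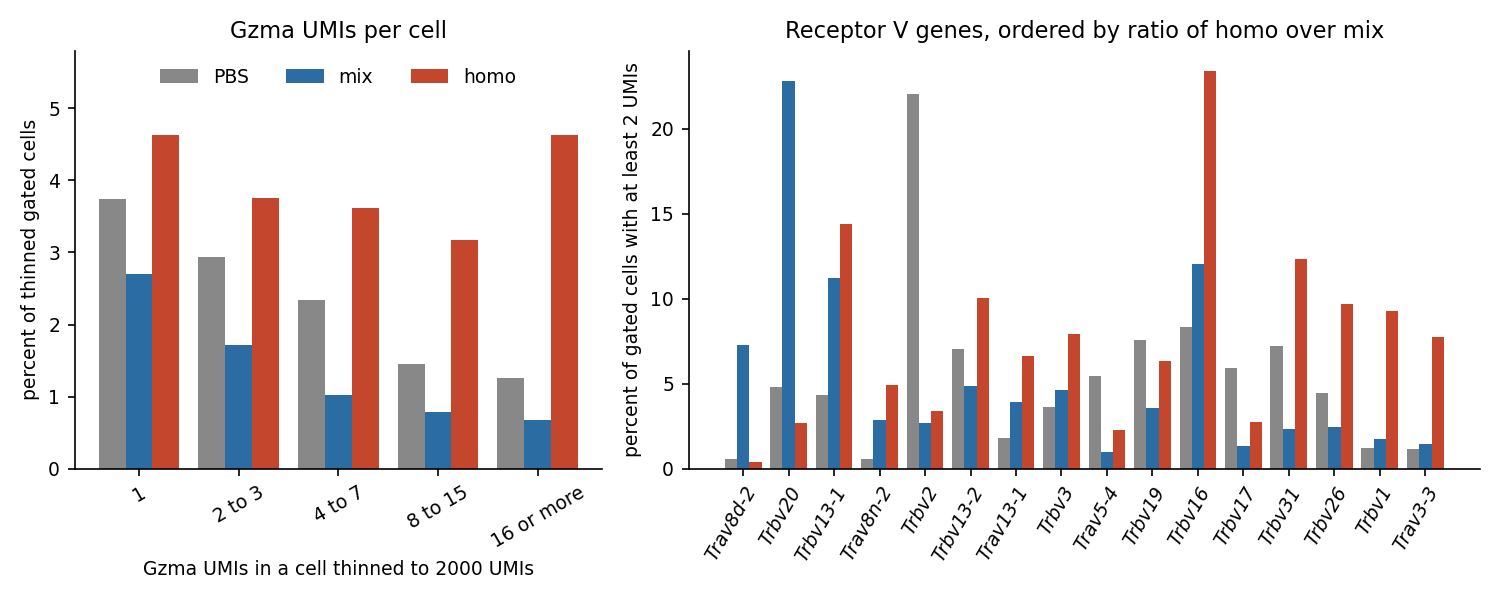
Left, percent of thinned gated cells (vertical axis) by the number of Gzma UMIs in a cell (horizontal axis) in the PBS, mix and homo libraries, where 4.64% of homo and 0.671% of mix cells held 16 or more. Right, percent of gated cells with at least 2 UMIs of each of the 16 most frequent receptor V genes, ordered by ratio, with Trbv20 in 22.8% of mix cells and 2.69% of homo cells.

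The ratios were next read within subsets of the gated cells, split by UMIs found after thinning. With 1 library per treatment, differences between subsets could not be tested. The share of all genes beyond 1.5-fold is not given within subsets, where fewer UMIs spread the ratios more. Counts of list members in a subset thus have no background share and only describe these cells. The genes beyond 2-fold were chosen on sums over these same cells, so that they keep their direction in subsets is largely fixed by that choice and is not counted here. The STAT5 list had a median of -0.96 in cycling and -0.89 in other cells, and of -0.85 with Havcr2 and -0.89 without. The glycolysis list had 16 of 25 genes lower in cells with Havcr2 and 10 in cells without. A Tcf7 UMI was held by 413 cells of mix and 503 of homo. Tcf7 was found in 7.49% of mix cells and 7.72% of homo cells, against 13.2% of the 38 myeloid barcodes (4.41 to 28.1). That interval holds both shares, so these barcodes cannot tell whether a single Tcf7 UMI marks expression. Within mix, cells with a Tcf7 UMI had Ccr7 at 216 CPM and Gzmb at 1256. Cells of mix without a Tcf7 UMI had them at 38.7 and 4166 CPM. In cells with a Tcf7 UMI the glycolysis list had a median of -0.07, with 3 of 25 lower, and in cells without Tcf7 a median of -0.60, with 13 lower. Serpina3f was at -0.81 in cells with Tcf7, with a counting interval from -1.76 to 0.13, and at -3.11 (-3.33 to -2.90) in cells without. Killer lectin receptors were higher in 7 of 9 in cells with Tcf7 (median 1.11) and inhibitory receptors in 9 of 14 (median 0.70), with Pdcd1 at 1.27. A split by Gzma, itself picked by its ratio, left 380 cells of mix and 1292 of homo with a Gzma UMI. In them 33 of 35 type I interferon genes were lower (median -1.22), against 12 in cells without (-0.47). Of 27 replication genes 12 were higher, against 0 without. Tcf7 was at -1.98 with Gzma and 0.41 without, and Emb at -0.08 and 1.30. In cells with Gzma, Tcf7 was at 73.4 CPM in mix and 18.6 in homo, and the median cell held 4896.5 and 8811 UMIs. The cells with Gzma may thus be of unlike kinds in the 2 libraries, and the part of this in their interferon counts was not tested.

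**Figure D5:**
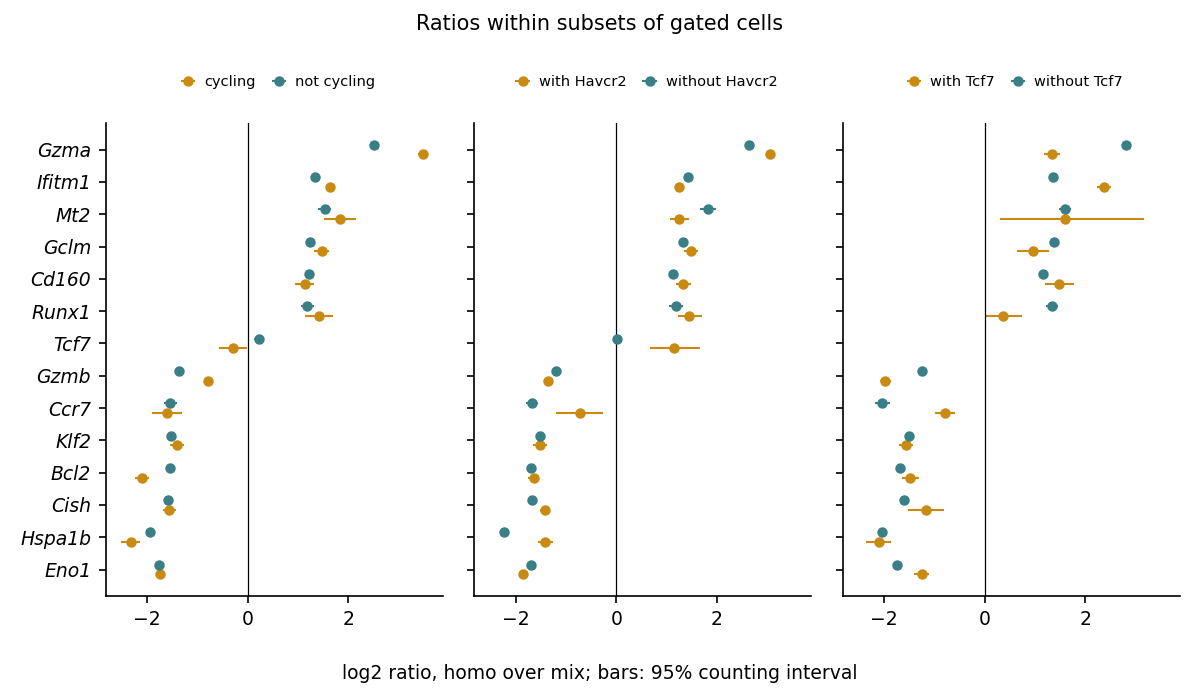
Log2 ratio of homo over mix (horizontal axis) of 14 genes within pairs of subsets of gated cells, 1 panel per split, with bars for the 95% counting interval. Bcl2, Cish and Klf2 lie below -1 in all 6 subsets, and Tcf7, not drawn in its own split, runs from -0.29 in cycling cells to 1.15 in cells with Havcr2. The split by Gzma is not drawn, and there Tcf7 was at -1.98 in cells with Gzma.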

How the data were processed

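The authors deposited, per library, a filtered matrix of UMI counts over 32285 genes. Cell Ranger 2.1.1, Seurat 4.1.0 and mm39 are named in the submitters' processing notes, while the matrix headers name Cell Ranger 7.1.0, so the version that made the counts is uncertain. From these counts, barcodes were gated, UMIs summed per gene and library, and CPM ratios taken with Python 3.11.15, numpy 2.4.6, scipy 1.17.1, pandas 2.3.3 and scanpy 1.11.5. The interval of a log2 ratio is the exact conditional binomial interval of 2 Poisson counts, and that of a share is exact binomial (Clopper-Pearson), both at 95%. The scripts were tested on simulated counts. No p-value was computed, since each treatment has 1 library, and cells are not replicates. Doublets were kept in the gated cells; Scrublet's own threshold called 0, 1 and 0 barcodes, so removing the highest scores was only an alternative. The gene lists and the gated cells were chosen with earlier results of these data known. Named genes are the 15 highest and 15 lowest by the interval end nearest 0, the 6 highest and 6 lowest of these under 50 CPM, up to 5 per list by the same rank, and 10 always named. Receptor, mitochondrial and marker genes, and up to 3 more per list, were chosen after their values were seen: Ankrd37, Ccl5, Cdk6, Cish, Dnajb1, Dusp1, Eno1b, Fos, Gclc, Gzmf, Gzmg, Hsp90ab1, Hspa8, Isg15, Itgb1, Jun, Lck, Ldha, Serpinb9, Slc2a1, Thy1, Tigit, Tnf, Tnfrsf18 and Tox. Promoter windows of 300 bases come from RefSeq (GRCm38.p6), which is not the mm39 build of the notes, and 6304 compared genes had one. In all, 13 alternatives were run, of which 1 was added after the data were seen.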

Additional observations from a re-analysis of the deposited data

How the results depend on the processing

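The counts of genes beyond 2-fold depended on the CPM minimum. With a minimum of 50 CPM, 22 genes were higher and 44 lower, and with no minimum 877 were higher and 1558 lower, since genes of few UMIs then enter. Under the other 11 alternatives, 55 to 93 were higher and 102 to 119 lower, against 64 and 109. The median log2 ratio of all genes lay between -0.06 and 0.01 over all 13. Klra3, called higher at 0.71, lost that call and its direction at -0.26 when cells with unequal V genes were left out, an alternative added after the data were seen. In all, 23 of 187 named genes changed sign under some alternative, the others among them being within 1.5-fold in the gated cells as a whole, such as Cdk1 (-0.37 to 0.27) and Rrm2 (-0.39 to 0.42). Of 33 list medians 8 changed sign, each between -0.09 and 0.01 in all gated cells, among them granule genes (-0.09 to 0.13), chemokines (-0.16 to 0.04), stem-like genes (-0.19 to 0.07) and inhibitory receptors (-0.06 to 0.04). Named genes that moved by over 1.5-fold under some alternative were Ltb4r1 (2.14 to 3.17), Prss2 (-5.28 to -3.42), Rln3 (-2.99 to -1.39), Ank3 (-2.55 to -1.50), Areg (-2.82 to -1.71), Ccl1 (-0.84 to 0.78), Socs2 (-1.27 to -0.47), Ccr7 (-1.77 to -0.86), Ube2c (0.89 to 2.06), Cdca3 (0.72 to 2.003) and Mcm2 (-1.67 to -0.67). For these the cause was not tested. Cd74 has no value without cells holding UMIs of other cell types, because it is 1 of the genes that define them. No paired analysis was possible because each treatment has 1 library, and leaving out a replicate was not possible for the same reason. No ratio here separates treatment from animal, digest or library.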

Other observations

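Cells that share a V segment differed from the other cells of their own library in some effector and memory genes. Within homo, the 1620 cells with at least 2 UMIs of Trbv16 held 28.9% of all UMIs but 20.8% of Gzma UMIs, at 895 CPM against 1386 in the other homo cells. The same cells had Tcf7 at 21.8 CPM, against 54.0 in the others. The 641 homo cells with Trbv1 held 11.1% of all UMIs and 21.2% of Gzmk UMIs, at 311 CPM against 145. These genes and V segments were paired after their values were seen. A V segment is shared by many clones, and with 1 library per treatment these values describe these cells only.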
